A study of Ipomoea batatas with 12 samples.

Results

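The cytosolic ribosomal protein genes of sweetpotato (Ipomoea batatas) roots are the 281 genes, of 45142 in the deposited table, whose description names a 40S, 60S or 60S acidic ribosomal protein and no mitochondrial, chloroplast, biogenesis or export protein. By description, 117 of these genes belong to the 40S (small) subunit, in 30 protein families, and 164 to the 60S (large) subunit, in 47 families. The 60S list includes 7 genes described as L18a-like protein, counted as 1 family apart from L18a. Roots were sequenced from plants overexpressing MBP3 (MBP3-OE; genotype given as MBP3 overexpression) at 20 days, 1 month and 4 months, with 3 libraries at each age that carry the replicate numbers 2, 3 and 8. Roots of WT plants of cultivar Taizhong 6 gave 1 library at each of the same ages, and both genotypes grew in a greenhouse. The promoter of the transgene was not given, and whether a replicate number marks a plant or a transformed line was not given either. Each WT library held roots of several plants, and the series text dates the middle WT stage later than the 1 month of its label. The stages run from fibrous roots through developing to mature tuberous roots.

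The 40S subunit reads the mRNA and the 60S subunit joins the amino acids. Ribosomal proteins are needed in nearly equal numbers, 1 of most kinds in every ribosome, and in plants each kind is encoded by several gene copies. Growing tissues make many ribosomes, and the transcripts of these genes are known to rise and fall together with growth. The acidic P proteins form the stalk of the large subunit, which recruits elongation factors, and S27a and L40 are made as fusions to ubiquitin.

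The library totals ran between 39424503 and 58486728 counts, and a count was not a read (the deposited counts exceed the valid reads). Of the 281 genes, 262 reached a mean of 0.5 FPKM (fragments scaled to transcript length and library size) over the 12 libraries and were tested, 112 of the 40S and 150 of the 60S. The other 19 lay below that minimum, 5 of the 40S and 14 of the 60S, and none was at 0 in every library. KEGG or GO annotation in the same table placed 277 of the 281 in the ribosome. The exceptions were g30898 (S27a), g59863 (L40) and a pair of L18a-like protein genes, g41593 and g59591. MBP3 itself, checked as gene g4107, stood at 67.3 to 78.4 FPKM in MBP3-OE at 20 days against 15.3 in WT. At 4 months it stood at 55.8 to 121 FPKM in MBP3-OE against 83.2 in WT, so that the level of the targeted gene did not separate the genotypes at that age. Sporamins, the storage proteins of the tuberous root (42 genes), took 8.68 to 17.8% of the counts in MBP3-OE at 4 months and 0.0666 to 0.16% at 20 days. In WT they took 11.9% at 4 months and 0.026% at 20 days. No sequence of these genes was at hand, so none is shown.

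The summed level of the ribosomal protein genes was lower at each later age in MBP3-OE, and in FPKM the libraries of the 3 ages did not overlap. The 281 genes summed to 34855, 34351 and 32452 FPKM in MBP3-OE replicates 2, 3 and 8 at 20 days, to 19225, 25214 and 23981 FPKM at 1 month, and to 10246, 15298 and 15981 FPKM at 4 months. The group means were 33886 ± 1267, 22807 ± 3163 and 13842 ± 3133 FPKM (SD, n = 3 each). Replicate 2 was the lowest library of its age at 1 month and at 4 months. At 4 months the mean was 0.409 of that at 20 days. In TMM-scaled CPM, the scale behind the tests, it was 0.493, and the libraries of 4 months (17035 to 25678) and 1 month (24744 to 29511) overlapped, with a ratio of means of 0.773 against 0.607 in FPKM. In WT the sums were 34574 FPKM at 20 days, 34547 at 1 month and 15219 at 4 months, so that the WT library of 1 month still stood at the 20-day level. As a share of all counts, the genes took 4.34 to 4.63%, 2.59 to 3.32% and 1.39 to 2.14% in MBP3-OE at the 3 ages. In WT they took 4.61% (95% Wilson interval 4.60 to 4.62%), 4.61% (4.60 to 4.61%) and 2.05% (2.04 to 2.05%), intervals that cover counting error only.

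**Figure D1:**
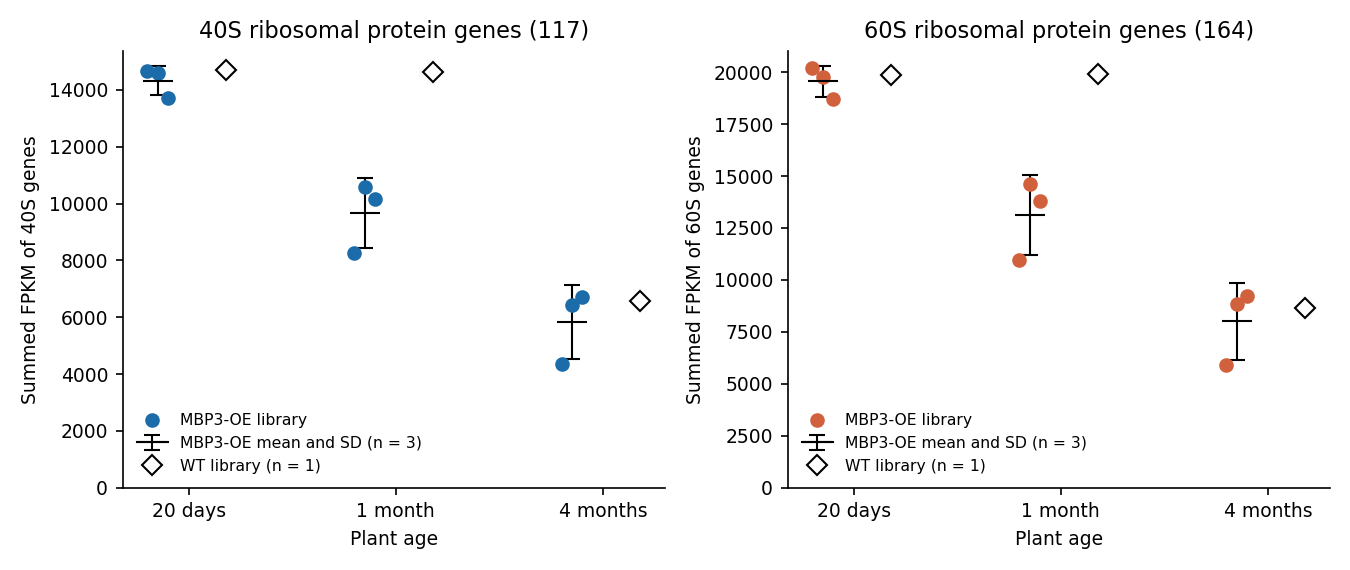
Summed FPKM of the 117 40S genes (left) and the 164 60S genes (right) in each library against plant age, with filled circles for MBP3-OE libraries, bars for their mean and SD (n = 3), and open diamonds for the single WT libraries. The WT 1 month library sat at 14647 FPKM for 40S genes and 19901 FPKM for 60S genes, above all 3 MBP3-OE libraries of that age, while at 4 months the WT library lay within the MBP3-OE range.

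The 40S and 60S genes kept nearly the same ratio while their sums changed. The 40S genes summed to 14331 ± 522, 9682 ± 1232 and 5839 ± 1297 FPKM in MBP3-OE at 20 days, 1 month and 4 months, and the 60S genes to 19555 ± 750, 13125 ± 1932 and 8002 ± 1836 FPKM (SD, n = 3). The ratio of 40S to 60S FPKM was 0.733 ± 0.00488, 0.739 ± 0.0164 and 0.731 ± 0.0067 at these ages. The spread of the ratio at 1 month was larger than any difference between the 3 means. In WT the ratio was 0.739, 0.736 and 0.758, the last of these above all 9 MBP3-OE libraries (0.724 to 0.757). No test is attached to these sums or ratios.

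Between 4 months and 20 days in MBP3-OE, 144 of the 262 tested genes fell and 4 rose (edgeR quasi-likelihood test over all 28065 genes tested, Benjamini-Hochberg adjusted p below 0.05 and a change of at least 2-fold). Of all genes tested, 17.8% fell and 17.5% rose by this rule, against 55.0% and 1.53% of the ribosomal protein genes. The share was alike in the subunits, with 62 of 112 40S genes (55.4%) and 82 of 150 60S genes (54.7%) lower. The 4 genes that rose were all of the 60S list, 2 of them L18a-like protein genes. By the adjusted p alone, 219 of the 262 were lower and 5 higher, where 22.6% of all genes tested were lower. The median log2 fold change was -1.05 for 40S genes and -1.06 for 60S genes, against 0.02 over all genes tested, and 248 of the 262 values were below 0. In 233 of the 262 genes (88.9%) all 3 MBP3-OE libraries of 4 months lay below all 3 of 20 days in CPM (counts scaled to a common library size) after TMM scaling, a pattern that 31.6% of all genes tested showed.

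The count moved to 111 without MBP3-OE 4 months replicate 2, the library with the lowest summed level, and reached 186 at most when another library was left out. Of the 148 genes called, 109 were called whichever library was left out, and all 148 kept their direction under all 18 alternatives run. The markers of other tissues moved in the same comparison: all 18 tested green-tissue markers of a list of 19 rose (median log2 fold change 5.79). Of 25 tested sporamin genes 20 rose and 1 fell, and of 14 xylem markers 12 fell and 1 rose. Of all genes tested 17.5% rose and 17.8% fell. Summed green-tissue markers stood at 3652 to 7457 FPKM in MBP3-OE at 4 months and at 67.5 to 157 FPKM at 20 days, while in WT they stood at 448 FPKM at 4 months and 58.7 FPKM at 20 days. Their part in the result was not tested. Without the sporamin genes in the fit the count of ribosomal protein genes called was 152. In bulk roots, fewer cells of a type and less RNA per cell cannot be told apart.

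Of the 5 most abundant genes of each subunit, 3 of the 40S and 4 of the 60S fell in MBP3-OE between 4 months and 20 days. By the same rule of adjusted p and 2-fold change, 17.8% of all genes tested fell. The 40S gene g13302 (S18) stood at 108, 186 and 202 FPKM in the MBP3-OE libraries of 4 months, against 502, 515 and 463 FPKM at 20 days. It fell by 1.3 on the log2 scale (SE 0.23, adjusted p = 0.00225, edgeR). The gene for SA, a 40S protein at the mRNA exit side (g55157), stood at 147, 181 and 152 FPKM at 4 months, against 418, 410 and 406 FPKM at 20 days, and fell by 1.08 (adjusted p = 0.00313, edgeR). An S5 gene, g50555, stood at 135, 169 and 126 FPKM at 4 months, against 387, 367 and 372 FPKM at 20 days, and fell by 1.12 (adjusted p = 0.000874, edgeR). The libraries of the ages did not overlap in FPKM in any of these 3 genes, which were already called lower between the same libraries. This pattern held in FPKM for 39.1% of all genes tested. The S3 gene g25790, for a protein at the mRNA entry channel, and the S6 gene g16904, for the 40S protein that S6 kinase phosphorylates downstream of TOR, passed the adjusted p but not the 2-fold minimum, with log2 fold changes of -0.84 and -0.77. S6 transcripts stood at 135, 162 and 206 FPKM at 4 months, against 352, 359 and 334 FPKM at 20 days.

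Of the 60S genes, g54098 (L8, a protein near the peptidyl transferase centre) had the highest mean, 456 FPKM over the 12 libraries. It stood at 249, 315 and 221 FPKM in MBP3-OE at 4 months, against 667, 682 and 678 FPKM at 20 days, and fell by 1.10 on the log2 scale (SE 0.19, adjusted p = 0.00228, edgeR). Its replicate spread at 20 days was small beside the distance between the ages. The L7a gene g24568 fell by 1.38, the L9 gene g20707 by 1.43 and the P2 gene g10474 by 1.37, with adjusted p between 0.00121 and 0.00367 (edgeR). By contrast g35829 (L18), which stood at 220, 271 and 271 FPKM at 4 months against 419, 436 and 406 FPKM at 20 days, did not pass (log2 fold change -0.45, adjusted p = 0.0675, edgeR). Its FPKM did not overlap between the ages, but the TMM scaling of counts makes the difference smaller.

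The stalk and ubiquitin fusion genes named by the rule fell as well. P0 carries the P1, P2 and P3 proteins of the stalk, and P3 is a plant form. The most abundant P0 gene, g3840, fell by 1.28 on the log2 scale in MBP3-OE between 4 months and 20 days (adjusted p = 0.0013, edgeR), the P1 gene g13932 by 1.12 (adjusted p = 0.00335, edgeR) and the only P3 gene, g26588, by 1.21 (adjusted p = 0.0189, edgeR). The call of g13932 was lost without MBP3-OE 4 months replicate 2 (log2 fold change -0.96). That of g26588 was lost without the same library (-0.98), without 20 days replicate 8 (-1.17) and without 4 months replicate 3 (-1.06). P3 transcripts stood at 25.1, 38.4 and 70.4 FPKM at 4 months, against 122, 126 and 131 FPKM at 20 days. The S27a fusion gene g13535 fell by 1.15 (adjusted p = 0.00225, edgeR) and the L40 fusion gene g39244 by 1.74 (adjusted p = 0.00113, edgeR).

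The largest falls among the called genes were in g9879 (L10), g4484 (L30), g14103 (S21) and g3593 (L35). The L10 gene g9879 (linkage group 3, 3041186-3043025, minus strand) encodes a protein that joins the large subunit late in its assembly, as known from yeast. It stood at 17.3, 9.89 and 11.8 FPKM at 4 months, against 109, 96.2 and 121 FPKM at 20 days, and fell by 2.76 on the log2 scale (SE 0.35, adjusted p = 0.00052, edgeR). The L30 gene g4484 (linkage group 2, 1983283-1985448, plus strand) stood at 13.8, 40.7 and 29.9 FPKM at 4 months, against 162, 163 and 142 FPKM at 20 days, and fell by 2.22 (SE 0.34, adjusted p = 0.00114, edgeR). In both genes every library of 4 months was below every library of 20 days by more than the spread within either age. However, both were chosen for their fall between these same libraries. Of all genes tested, 39.1% had every library of 4 months below every one of 20 days in FPKM. The S21 gene g14103 fell by 2.16 (adjusted p = 0.00082, edgeR) and the L35 gene g3593, whose protein lies at the exit tunnel of the large subunit, by 1.93 (adjusted p = 0.000162, edgeR).

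The 4 genes that rose were low in level, with means of 2.64 to 21.5 FPKM over the 12 libraries. An L27 gene, g2092, stood at 4.54, 3.75 and 4.12 FPKM at 4 months, against 0.917, 1.5 and 0.766 FPKM at 20 days, and rose by 2.24 on the log2 scale (SE 0.36, adjusted p = 0.00144, edgeR). It made up 3.86% of the L27 family at 4 months and 0.349% at 20 days. The neighbouring L18a-like protein genes g34752 and g34755 rose by 1.45 and 1.25, and the L23a gene g29087 by 1.03 (adjusted p = 0.00531, 0.00388 and 0.0142, edgeR). The call of g34752 was lost without MBP3-OE 4 months replicate 2 (0.98), the library in which it was highest, and that of g29087 was lost in 10 of its 18 alternatives, with values from 0.56 upward. Of the 27 tested genes below 10 FPKM, 9 fell and 2 rose, of 132 between 10 and 100 FPKM 77 fell and 2 rose, and of 103 at 100 FPKM or more 58 fell and none rose. Of all genes tested 17.8% fell and 17.5% rose by this rule. No such share was computed for all genes of each level, so the classes cannot be set against genes of like level.

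The 7 genes described as L18a-like protein stood apart from the other families. The 5 above 0.4 FPKM carried the same KEGG orthologue as the L18a genes, whose family summed to 199.7 FPKM at 4 months and 583 FPKM at 20 days, and 4 were tested. All 4 had log2 fold changes above 0 in MBP3-OE and in WT between 4 months and 20 days, 2 of them called in MBP3-OE and none in WT. The family summed to 81.0 ± 6.75, 110 ± 6.37 and 103 ± 8.16 FPKM in MBP3-OE at 20 days, 1 month and 4 months (SD, n = 3) and to 57.9, 79.8 and 91.0 FPKM in WT. It was the only one of the 77 families whose sum was higher at 4 months than at 20 days in MBP3-OE. The member g30620 was the most variable of the 262 tested genes (coefficient of variation 1.25 over the 12 libraries), since it was read at 12.8 FPKM in WT at 4 months and listed at 0 in WT at 1 month, with 0 counts there. It stood at 0.732 to 4.34 FPKM in the MBP3-OE libraries.

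Summed over their copies, 46 of the 47 60S families and all 30 40S families had every MBP3-OE library of 4 months below every library of 20 days in FPKM. Of all single genes tested 39.1% showed this in FPKM. No such share was computed for sums over copies, so sums and single genes are not like for like here. The family counts were the same for sums of the tested members in TMM-scaled CPM, a scale added after the data had been seen. The median family stood at 207 FPKM (quartiles 154 and 245) at 4 months and 481 FPKM (379 and 584) at 20 days for the 40S, and at 177 FPKM (99.2 and 218) at 4 months and 415 FPKM (282 and 579) at 20 days for the 60S. The log2 ratio of family sums had a median of -1.27 for 40S families (range -2.01 to -0.96) and -1.38 for 60S families (range -2.03 to 0.34). The deepest were L10 (-2.03), S30 (-2.01), L39 (-1.95), L40 (-1.92) and L38 (-1.89), and the shallowest below 0 were L10a (-0.81), L18 (-0.94) and S3a (-0.96). In WT the medians were -1.18 for 40S and -1.30 for 60S families. L38, with a single gene, had the lowest sum at 20 days, 28.5 ± 2.01 FPKM, and L19, with 8 genes, the highest, 812 ± 34.8 FPKM (SD, n = 3).

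**Figure D2:**
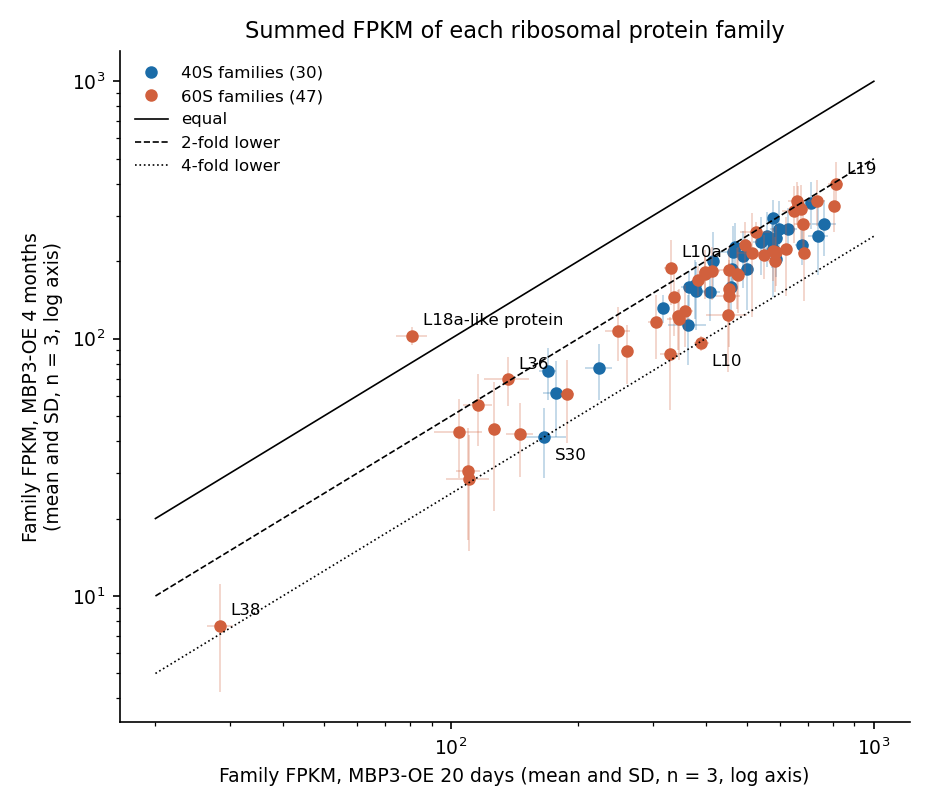
Summed FPKM of each of the 77 ribosomal protein families in MBP3-OE at 4 months (y axis) against 20 days (x axis), both on log axes, with the mean and SD of 3 libraries for 30 40S families (blue) and 47 60S families (orange). Lines mark equal levels and levels 2-fold and 4-fold lower; the L18a-like protein family alone lies above the line of equality, and L10 and S30 lie on the 4-fold line.

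Copies of 1 family did not change alike. Of 70 families with 2 or more tested genes, the most abundant copy at 20 days in MBP3-OE was no longer the most abundant at 4 months in 9, and its share of the family moved by more than 10 percentage points in 14. Some of the 9 were near ties in mean share at 4 months, as in S20 (40.92 against 40.99%) and L17 (31.3 against 32.8%). In S21, g14103 made up 27.1, 34.4 and 33.8% of the family FPKM at 4 months, against 58.2, 54.5 and 50.7% at 20 days. The copy g35892 made up 38.2, 35.0 and 39.4% at 4 months, against 23.5, 26.4 and 28.7% at 20 days. The groups did not overlap for either copy, but the family was chosen for the loss of share between these same libraries. In WT g14103 held 32.7% at 4 months and 54.9% at 20 days.

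In S3a, whose protein stands at the mRNA exit side of the small subunit, g50955 held 19.8, 28.5 and 25.2% at 4 months, against 44.8, 44.7 and 42.4% at 20 days. The other main copy, g4438, was read at 162, 174 and 212 FPKM at 4 months, against 240, 236 and 233 FPKM at 20 days, and its log2 fold change was -0.08 (adjusted p = 0.726, edgeR), whereas g50955 fell by 1.52 (adjusted p = 0.0017, edgeR). In WT g4438 held 66.7% and g50955 21% at 4 months. At 20 days these copies were nearly level in WT, at 43.0% and 42.8%. In L7a, g24568 held 56% at 4 months and 72.6% at 20 days on average, and the second copy, g11735, had a log2 fold change of -0.32 that did not pass (adjusted p = 0.208, edgeR).

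In the L18a-like protein family the main copy, g54321, held 48.3% at 4 months and 67.5% at 20 days on average, but replicate 2 stood alone at 32.3% against 58.9 and 53.6% in replicates 3 and 8. Among the other genes named here, g4484 held 15.7, 28.4 and 19.8% of L30 at 4 months, against 44.4, 44.2 and 42.2% at 20 days. The L10 gene g9879 held 19.6, 9.91 and 11.8% at 4 months, against 27.1, 25.8 and 30.4% at 20 days, while the other L10 gene, g4434, fell by 1.49 on the log2 scale (adjusted p = 0.000284, edgeR). How reads matching more than 1 copy were counted was not given, so values of near-identical copies are uncertain. The least variable of the tested genes was an L7 copy, g31564, with a coefficient of variation of 0.128. It was read at 82.8, 89.5 and 93.0 FPKM in MBP3-OE at 4 months, against 78.9, 83.7 and 74.2 FPKM at 20 days.

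**Figure D3:**
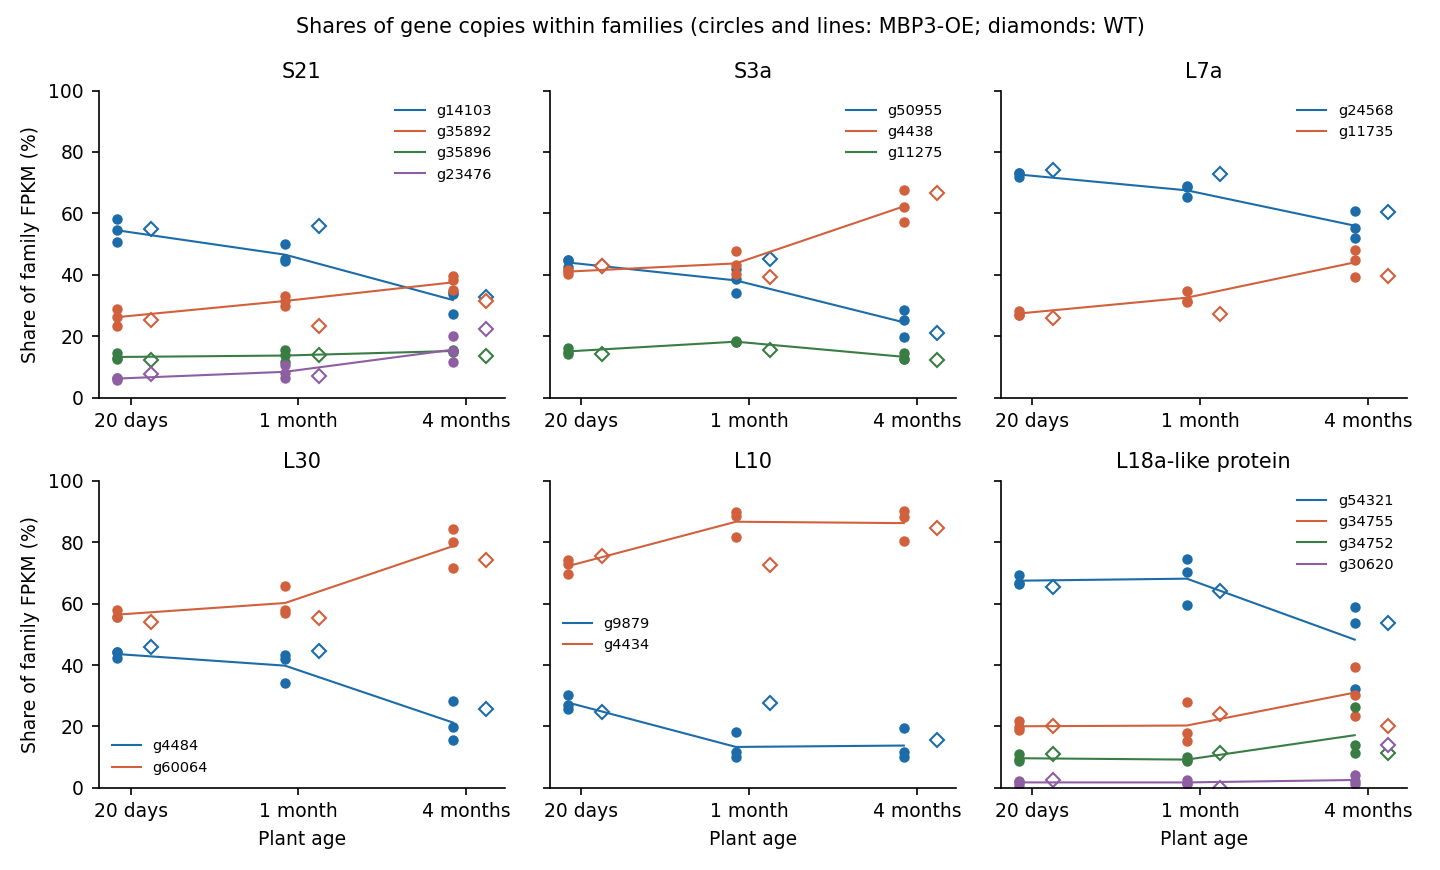
Share of the family FPKM (%) held by single gene copies of S21, S3a, L7a, L30, L10 and the L18a-like protein family at 3 ages, with circles for MBP3-OE libraries, lines through their means, and open diamonds for WT libraries. The copies of S21, S3a and L7a that led at 20 days in MBP3-OE hold less at 4 months in both genotypes. For L10 the WT 1 month diamond (27.6% for g9879) stands with the 20-day libraries rather than with MBP3-OE at 1 month (10.2 to 18.2%).

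By 1 month, 3 of the 262 genes had fallen in MBP3-OE against 20 days and none had risen, where 3.49% of all genes tested fell. The small number past the 2-fold minimum goes with shifts below that size: by the adjusted p alone 65 genes (24.8%) were lower, 32 of the 40S and 33 of the 60S, where 4.89% of all genes tested were lower. The median log2 fold change was -0.63 for 40S and -0.67 for 60S genes, against 0.03 over all genes tested. In 238 of the 262 genes the 3 libraries of 1 month lay below the 3 of 20 days, which 22.4% of all genes tested showed. The genes that fell were g9879 (L10), at 18.2, 42.8 and 27 FPKM at 1 month against 109, 96.2 and 121 FPKM at 20 days (log2 fold change -1.99, adjusted p = 0.00958, edgeR), g3593 (L35; -1.12, adjusted p = 0.00734, edgeR) and the S5 gene g11764 (-1.05, adjusted p = 0.0164, edgeR). The count of 3 became 10 without 1 month replicate 3, 10 without 4 months replicate 2, and 5 and 6 without 4 months replicates 3 and 8. It became 12 with the 20-day and 1-month libraries alone.

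From 1 month to 4 months, 4 genes fell and 2 rose in MBP3-OE, where 9.56% of all genes tested fell and 7.48% rose. The median log2 fold changes were -0.38 for 40S and -0.40 for 60S genes, against -0.01 over all genes tested, and 42 genes were lower by the adjusted p alone, where 12% of all genes tested were. Those that fell were g4484 (L30; log2 fold change -1.36), g14103 (S21; -1.15), g25760 (S15a; -1.06) and g1257 (L39, a protein that lines the exit tunnel; -1.04), with adjusted p between 0.019 and 0.0379 (edgeR). Those that rose were g2092 (L27; 1.19) and g34752 (L18a-like protein; 1.15), with adjusted p of 0.0376 and 0.029 (edgeR). The 6 calls became 3 without 20 days replicate 8 or 1 month replicate 3, 2 without 1 month replicate 8, 1 without 4 months replicate 2, and 17 and 19 without 4 months replicates 3 and 8. Under library-total scaling 44 of the 262 genes were called, all lower, a share near that of all genes tested (14.4% lower under that scaling).

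In WT, 93 genes fell and 2 rose between 4 months and 20 days, 35 of the 40S genes and 58 of the 60S genes among those that fell. By this rule 9.15% of all genes tested fell and 11.5% rose. With 1 WT library at each age, the test takes its spread from the MBP3-OE libraries. The median log2 fold change was -1.06 for 40S and -1.14 for 60S genes, against 0 over all genes tested. The largest called falls were g33369 (L27; -2.23, adjusted p = 0.00385, edgeR), g9879 (L10; -2.20, adjusted p = 0.0319, edgeR), g63063 (L37; -2.13, adjusted p = 0.0141, edgeR) and g11764 (S5; -2.09, adjusted p = 0.00723, edgeR). The S5 gene stood at 42.2 FPKM at 4 months and 194 FPKM at 20 days. Those that rose were g2092 (L27), at 6.72 FPKM at 4 months against 1.01 FPKM at 20 days (2.80, adjusted p = 0.0173, edgeR), and g29087 (L23a; 1.61, adjusted p = 0.0442, edgeR), both of which had risen in MBP3-OE. The 95 calls became 37, 32 and 32 without replicates 2, 3 and 8 of MBP3-OE at 20 days.

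Across the 262 genes the 4-month fold changes of MBP3-OE and WT, which share no library, had a Pearson r of 0.857 (0.767 over all genes tested); genes are not independent replicates. The value was lower at 4 months in both genotypes for 244 genes (93.1%; 40.2% of all genes tested), and 91 genes (34.7%; 15.2% of all genes tested) were called in both. No gene of the 262 passed the test of the difference between the 4-month effects (lowest adjusted p = 0.407, edgeR), and 2 of them had an unadjusted p below 0.05. No gene of the table passed it with edgeR, while DESeq2 called 333 genes of the table higher and 413 lower in this difference, none of them a ribosomal protein gene. The median difference, MBP3-OE minus WT, was 0.01 for 40S and 0.07 for 60S genes on the log2 scale, and it changed sign under library-total scaling (-0.15 and -0.09).

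**Figure D4:**
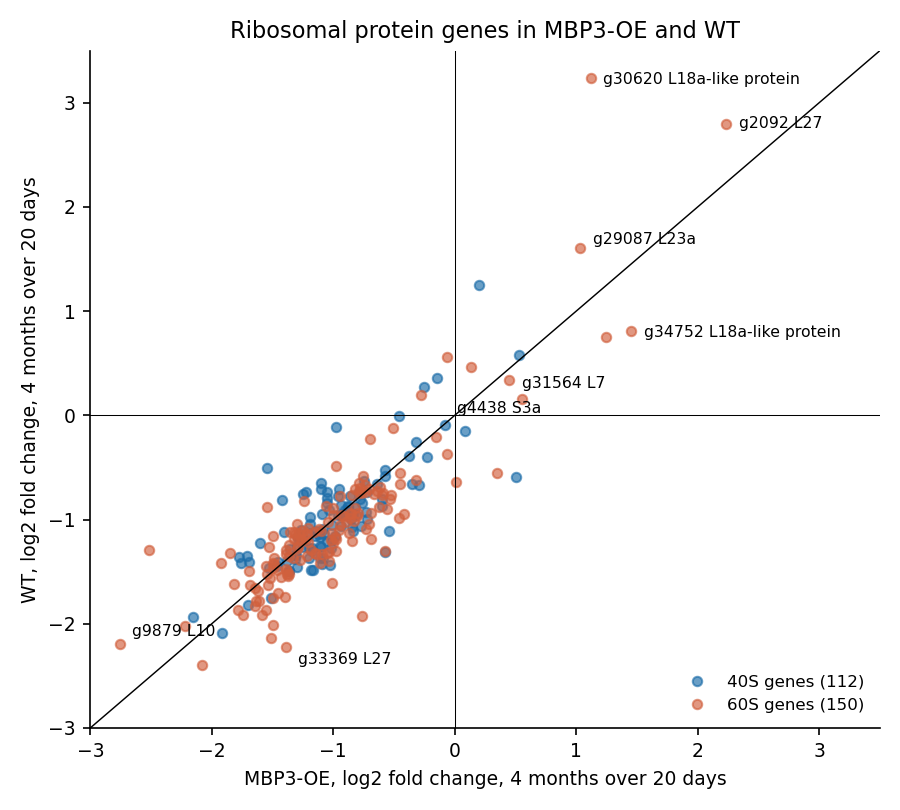
Log2 fold change of 4 months over 20 days in MBP3-OE (x axis) and WT (y axis) for the 112 40S genes (blue) and 150 60S genes (orange) tested, with a line of equality. Most points lie below 0 on both axes, and g2092 (2.24 in MBP3-OE, 2.80 in WT) and g9879 (-2.76 and -2.20) are the highest and lowest on the MBP3-OE axis.

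The WT library of 1 month was set against that of 20 days as well. No ribosomal protein gene was called there, where 0.178% of all genes tested were called in either direction. With an unadjusted p below 0.05 there were 2, and DESeq2 called 1. The median log2 fold change was -0.18 for 40S and -0.19 for 60S genes, but under library-total scaling it was 0.00 and -0.01, so that a direction depends on the scaling. The L10 gene g9879 stood at 107 FPKM in WT at 1 month and 92.1 FPKM at 20 days.

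MBP3-OE was set against WT over the 3 ages together. No ribosomal protein gene was called (edgeR), where 0.164% of all genes tested were called in either direction; 66 of the 262 had an unadjusted p below 0.05, the lowest adjusted p was 0.0612 (edgeR), and DESeq2 called 3. The medians were -0.28 for 40S and -0.26 for 60S genes, against 0.06 over all genes tested. The ages differed in this, and comparisons at single ages were added after the sums had been seen. At 1 month 244 of the 262 genes (93.1%) had all 3 MBP3-OE libraries below the WT library, which 27% of all genes tested showed. At 20 days the same held for 169 (34.3% of all genes tested), and at 4 months for 65 (26.8%). The medians of MBP3-OE over WT at 1 month were -0.62 for 40S and -0.60 for 60S genes, and none of the 262 passed (edgeR, lowest adjusted p = 0.203; 98 with an unadjusted p below 0.05; 9 by DESeq2). The medians at 20 days were -0.12 and -0.13, but -0.01 and -0.01 under library-total scaling.

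The 1-month change itself was also compared between the genotypes. Its difference, MBP3-OE minus WT, had a median of -0.51 for 40S and -0.46 for 60S genes, and was below 0 for 250 of the 262. None of the 262 passed the test of it (edgeR, lowest adjusted p = 0.519; 5 with an unadjusted p below 0.05; DESeq2 called 1). For g9879 the difference was -2.01 (SE 0.66, adjusted p = 0.682, edgeR), with 18.2, 42.8 and 27 FPKM in MBP3-OE and 107 FPKM in WT at 1 month. The sources give different ages for the middle WT stage, so genotype and age cannot be told apart at 1 month, and only 1 WT library stands behind it. Plastid ribosomal protein genes and sporamin genes stood on the other side at 1 month. Plastid sums were 713 to 871 FPKM in MBP3-OE against 451 FPKM in WT, and sporamin sums 3227 to 13340 FPKM against 2203 FPKM. Both lists already stood higher in MBP3-OE at 20 days. Plastid sums were then 291 to 330 FPKM against 202 FPKM, and sporamin sums 495 to 1205 FPKM against 183 FPKM. At 1 month the median log2 fold change of MBP3-OE over WT was -0.45 for ribosome biogenesis and -0.36 for translation initiation genes. It was -0.43 for translation elongation and termination genes and 0.47 for cell division genes.

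Other lists of the translation machinery were read beside the ribosomal protein genes between 4 months and 20 days. By the call rule 17.8% of all genes tested fell and 17.5% rose in MBP3-OE, and 9.15% fell and 11.5% rose in WT. RACK1, a scaffold protein bound to the 40S subunit, moved the same way as the ribosomal protein genes. All 3 tested RACK1 genes fell in MBP3-OE (median log2 fold change -1.09) and in WT (-1.27). Its main gene, g52286, stood at 44.7, 75.1 and 60.5 FPKM in MBP3-OE at 4 months, against 182, 167 and 170 FPKM at 20 days. Plastid ribosomal protein genes went the other way. In MBP3-OE 40 of 46 rose and 1 fell (median 1.93), in WT 39 rose (median 3), and the most abundant, g64072 (plastid L27), stood at 107, 73.8 and 116 FPKM in MBP3-OE at 4 months, against 10.4, 14.7 and 12.1 FPKM at 20 days. The median of 25 tested mitochondrial ribosomal protein genes was -0.34 in MBP3-OE and 0.12 in WT, where 1 fell. In MBP3-OE 4 of them fell (16.0%, near the share of all genes tested) and none rose. One of them, g9356 (mitochondrial L46), fell by 2.89 (adjusted p = 0.000189, edgeR).

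Factors that assemble or serve ribosomes showed smaller medians. Of 80 tested ribosome biogenesis genes 20 fell and 4 rose in MBP3-OE (median -0.49); nucleolin g8711, a nucleolar protein of rRNA production and its most abundant member, was at -0.92 (adjusted p = 0.00461, edgeR), short of 2-fold. Of 74 translation initiation genes 8 fell and 6 rose (median -0.44), with the most abundant, g42780 (eIF5A), down by 1.20 (adjusted p = 0.022, edgeR). Of 23 elongation and termination genes none was called in MBP3-OE (8 with an unadjusted p below 0.05; median -0.38), and their most abundant, the release factor gene g4765, was at -0.28 (adjusted p = 0.222, edgeR). Of 28 cytosolic aminoacyl-tRNA synthetase genes 3 fell and 1 rose, with g46295, for proline, at 0.13 (adjusted p = 0.464, edgeR). Of 21 RNA polymerase I and III genes 2 fell and 1 rose, with g55202 (rpa49) at -0.64 (adjusted p = 0.0944, edgeR). Among these lists only ribosome biogenesis had a larger share that fell in MBP3-OE than all genes tested (17.8%). The share was 10.8% for initiation, 10.7% for synthetase and 9.52% for RNA polymerase genes. By the adjusted p alone 41.9% of initiation, 39.3% of synthetase and 28.6% of RNA polymerase genes were lower. This held for 21.7% of elongation and termination genes and 22.6% of all genes tested.

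The lists below are also to be read beside all genes tested, of which 17.8% fell and 17.5% rose in MBP3-OE. The share that fell was 3.57% for proteasome genes and 34.1% for cell division genes. Of 56 proteasome genes 2 fell and 1 rose (median -0.50), with g38669, for subunit 14 of the regulatory particle, at -0.51 (adjusted p = 0.034, edgeR). Of 41 cell division genes 14 fell and 3 rose (median -0.80), with the histone H2B gene g60865 at -0.36 (adjusted p = 0.213, edgeR). Of the 3 genes of the TOR pathway, a regulator of ribosome production, 1 rose and none fell, and g24549 (RAPTOR) was at 0.17 (adjusted p = 0.586, edgeR). Among the markers of other tissues, 3 of 5 endodermis genes, 14 of 48 phloem genes and 1 of 2 histone H4 genes kept as markers of dividing cells fell, and none of these rose; no marker was at 0 in every library. Their summed levels at 4 months and 20 days in MBP3-OE were 2.49 to 34.8 and 239 to 335 FPKM for endodermis, 13.1 to 16.2 and 80.3 to 162 FPKM for xylem, 47.2 to 98.9 and 193 to 261 FPKM for phloem, and 55.4 to 146 and 106 to 182 FPKM for dividing cells. Their part in the ribosomal protein result was not tested.

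**Figure D5:**
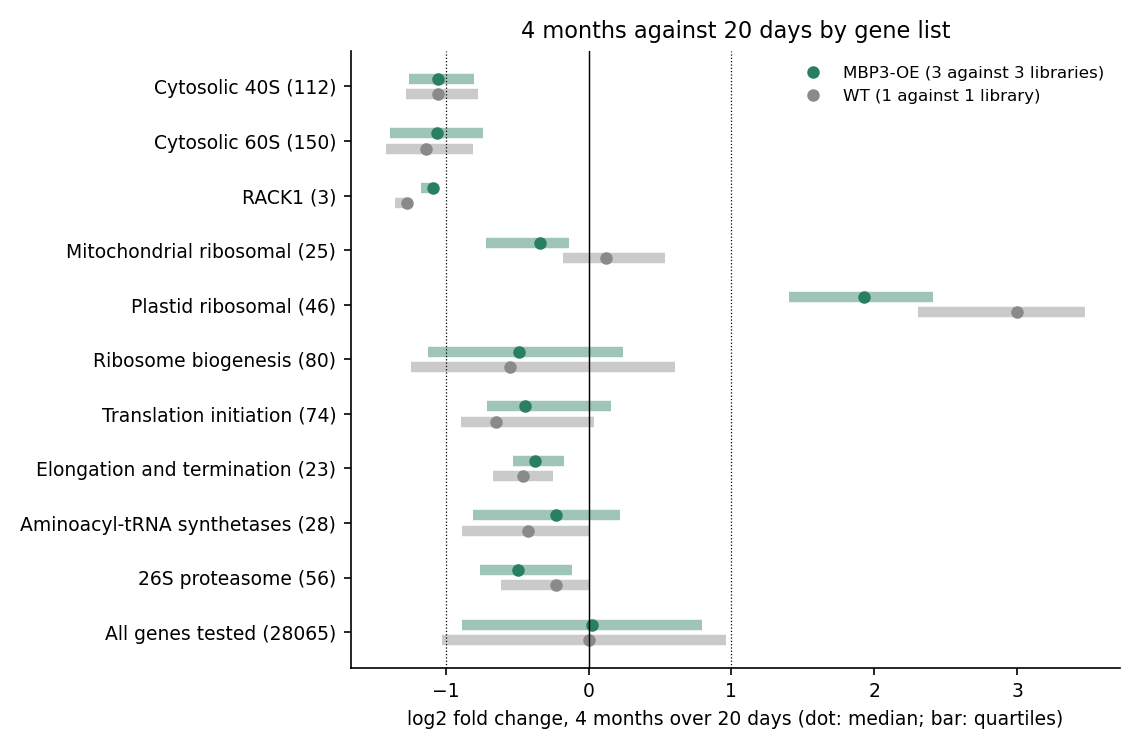
Median (dot) and quartiles (bar) of the log2 fold change of 4 months over 20 days for each gene list, with the number of tested genes in parentheses, in MBP3-OE (green, 3 against 3 libraries) and WT (grey, 1 against 1). Cytosolic 40S and 60S genes and RACK1 sit near -1 in both genotypes, plastid ribosomal protein genes at 1.93 and 3, and all genes tested near 0.

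The 281 genes lay on all 15 linkage groups, from 4 on linkage group 10 to 29 on linkage group 2, by the coordinates of the deposited table, whose genome build is not named. With gaps below 50 kb there were 29 neighbouring pairs, 16 of 1 family and 13 of different families. Some pairs of different families occurred at more than 1 place. An S30 and an L31 gene lay head to head on opposite strands at 2 places on linkage group 5: g19855 (S30, 24066085-24067607, minus strand) with g19856 (L31, 24067822-24069959, plus strand), and g20002 (L31, 25229621-25237205, minus strand) with g20003 (S30, 25237390-25238915, plus strand). The gaps were 215 and 185 bp.

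These neighbours, chosen for their position after the values had been seen, did not change to the same degree. The S30 genes g19855 and g20003 fell by 1.71 and 1.77 on the log2 scale in MBP3-OE between 4 months and 20 days (adjusted p = 0.000797 and 0.000341, edgeR), while the L31 genes g19856 and g20002 were at -0.28 and -0.51 (adjusted p = 0.243 and 0.0284, edgeR). The S30 gene g19855 stood at 15.5, 30.2 and 25.2 FPKM at 4 months, against 103, 98.0 and 78.4 FPKM at 20 days. Its L31 neighbour g19856 stood at 97.8, 104 and 95 FPKM at 4 months, against 150, 157 and 131 FPKM at 20 days. In FPKM the groups did not overlap in either gene, and 39.1% of all genes tested had every library of 4 months lower. The S30 gene was the one with the larger distance, and g19856 was not called. An S20 and an S13 gene were neighbours on linkage group 1 (g1608 and g1609, 2834 bp apart) and on linkage group 7 (g25356 and g25355, 1194 bp apart), and an L35 and an L23a gene on linkage groups 5 and 7.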

How the data were processed

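RNA from roots was sequenced on an Illumina instrument in 12 libraries, 9 of MBP3-OE and 3 of WT. The submitters' processing notes name cutadapt 1.9, HISAT2 2.0.4 and StringTie 1.3.4d, the last of which gave the FPKM that the authors deposited; the study's methods name the Ipomoea Genome Hub as the source of the reference, and a build name was not given in the sources used here. Whole-number counts were deposited beside them, from a tool that was not given. No column of the authors' own comparisons was used.

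Members were found by description, and families from the protein named in it. The members, gene lists and alternatives were chosen with earlier results of these data known. Named genes were the 5 most abundant of each subunit; up to 4 largest rises and falls called per comparison; the most abundant copy of P0, P1, P2, P3, S27a, L40, S6 and L10; the 4 families whose main copy lost the largest share; the least and most variable gene; and the most abundant gene of each other list.

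Counts were fitted for the 28065 genes whose mean reached 0.5 FPKM, in edgeR 4.0.16 (R 4.3.3) with TMM scaling, 6 group means and 6 residual degrees of freedom (quasi-likelihood F test). A gene was called at a Benjamini-Hochberg adjusted p below 0.05 with a log2 fold change of at least 1. Lone WT libraries were assumed to vary like MBP3-OE libraries, and the spread was pooled over ages although it differed (common coefficient of variation of 0.234 for 20 days, 0.405 for 1 month, 0.5 for 4 months). As nothing says that replicates are separate plants, p-values measure only the spread between these libraries. Alternatives were median-ratio and library-total scaling, no filter, DESeq2 1.42.0, limma 3.58.1 on log2(FPKM + 1) and log2(FPKM + 0.1), MBP3-OE libraries alone with and without a replicate block, leaving out each MBP3-OE library, the adjusted p alone, and members with ribosome annotation. Chosen after seeing the data were fits without sporamin genes or with the 20-day and 1-month libraries only, counts without the L18a-like protein genes, and the single-age contrasts. The fit was tested on simulated data.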

Additional observations from a re-analysis of the deposited data

Results flagged for a closer look

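The summed FPKM of the 60S genes was lower at 1 month in MBP3-OE and stood level in WT: all 3 MBP3-OE libraries of 1 month (10945, 14625 and 13804 FPKM) lay below all 3 of 20 days (20173, 19771 and 18721 FPKM), while the WT library of 1 month stood at 1.001 times that of 20 days (19901 against 19881 FPKM). The difference between the genotypes in this sum was not tested, and in CPM after TMM scaling the summed ribosomal protein level of WT at 1 month was 0.879 times that at 20 days.

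The L10 gene g9879 was named for its fall at 1 month in MBP3-OE. In CPM after TMM scaling every MBP3-OE library of 1 month lay below every one of 20 days, which 22.4% of all genes tested showed. In WT the gene likewise stood level on that scale, with WT at 1 month at 1.019 times WT at 20 days. The test of this difference did not pass (log2 difference -2.01, adjusted p = 0.682, edgeR).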

How the results depend on the processing

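The fall of ribosomal protein genes between 4 months and 20 days kept its direction under every alternative run. In MBP3-OE the 148 calls became 224 by the adjusted p alone and lay between 111 and 186 with 1 MBP3-OE library left out. The summed level had a log2 ratio of -1.29, and of -1.02 in CPM after TMM scaling. In WT the 95 calls became 61 with no filter on low values, 153 with DESeq2, and 32 to 135 with 1 library left out.

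For MBP3-OE at 1 month against 20 days the 3 calls became 10 with median-ratio scaling, 13 with DESeq2, 1 with limma on log2(FPKM + 1), 5 with MBP3-OE libraries only, 12 with the 20-day and 1-month libraries only, 65 by the adjusted p alone, and 2 to 10 with 1 library left out. For MBP3-OE at 4 months against 1 month the 6 calls became 44 with library-total scaling, 10 with DESeq2, 62 and 70 with limma on log2(FPKM + 1) and log2(FPKM + 0.1), 46 by the adjusted p alone, and 1 to 19 with 1 library left out. Counts of 0 became 1 for WT at 1 month against 20 days (DESeq2, and the 20-day and 1-month libraries only; 0 to 1 with 1 library left out), 3 for MBP3-OE against WT over the ages (DESeq2; 0 to 1 with 1 library left out), 9 for MBP3-OE against WT at 1 month and 1 for the difference of the 1-month effects (both DESeq2). The differences of effects and the comparison at 20 days stayed at 0 with any 1 library left out. The causes were not tested.

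Library-total scaling moved the median of all genes by -0.25 for MBP3-OE and -0.09 for WT at 4 months against 20 days, by -0.32 for MBP3-OE at 4 months against 1 month, and by 0.18 for WT at 1 month against 20 days; the ribosomal protein medians of the first were then -1.31 for both subunits. Same-numbered libraries did not deviate together (correlations -0.0488 to 0.0971), so the numbers were not used to pair libraries; whether a number marks a shared line was not given. With a replicate block on the MBP3-OE libraries the counts were 158 (4 months against 20 days), 6 (1 month against 20 days) and 6 (4 months against 1 month). For the named genes, 617 of 648 log2 fold changes of 4 months against 20 days kept their side of the threshold, 19 lost the call, 12 gained it and none changed sign. Only 1 WT library stands at each age, which limits what the WT comparisons can show.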
